A study of Homo sapiens with 18 samples.

Results

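Senescent fibroblasts stripped of their mitochondria were given acetate, and their transcriptome was compared with that of the same kind of cells without it. The comparison holds 3 libraries of Sen (IR) + CCCP + acetate and 3 of Sen (IR) + CCCP, taken by their labels from the 18 RNA-seq libraries of the series. The cells were IMR90, an established line of human lung fibroblasts, engineered so that the uncoupler CCCP leads to removal of their mitochondria. Both groups had been irradiated with 20 Gy, which makes fibroblasts senescent, and then exposed to CCCP for 48 h, and the acetate group was fed 20 mM sodium acetate from day 3 until collection on day 12. The other groups, also of 3 libraries each, were proliferating cells (Prol), irradiated cells that kept their mitochondria (Sen (IR)), and Sen (IR) + CCCP cells transfected with mitochondrial DNA (mtDNA) on day 10, without or with acetate. The sources used here do not say whether groups without mtDNA received the transfection reagent alone, nor whether groups without acetate received another sodium salt, so mtDNA and transfection, and acetate and its sodium, cannot be told apart.

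Acetate is converted to acetyl-CoA by ACSS2 in the cytosol and nucleus. Acetyl-CoA is the substrate of histone acetyltransferases and of fatty acid and sterol synthesis, and much of the cytosolic pool normally comes from mitochondrial citrate, exported by SLC25A1 and cleaved by ACLY. Senescent cells have left the cell cycle and secrete inflammatory factors, the senescence-associated secretory phenotype (SASP). In the study, acetate was given to ask whether acetyl-CoA is enough to bring back SASP gene expression when mitochondria are gone. Histone acetylation was measured there as well. The genes described here lie outside a list of 142 commonly named SASP and secreted factors, which were set aside and of which 118 had been tested. That list was collected for this purpose and is not the one defined by the study. Other secreted factors may therefore remain among the genes described.

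The 6 libraries held 24624886 to 46045962 counts, and 16994 genes passed the low-count filter. mtDNA-encoded genes took 0.123% ± 0.0117 of counts without acetate and 0.132% ± 0.00777 with it, against 2.11% ± 0.469 in Sen (IR) (SD, n = 3). All 16 fibroblast markers were tested, and they summed to 8131 to 8515 CPM (read counts relative to library size, scaled for composition as described under processing) without acetate and 7244 to 7677 CPM with it, while 9 of them were higher and 6 lower (median log2 fold change 0.30). Of 11 leukocyte markers 3 were tested and all 3 were higher, the list summing to 1.14 to 1.24 and 2.73 to 2.89 CPM, with CD74, CD14 and CD68 the members tested and ITGAM and SPI1 at 0 in every acetate library. The 7 smooth muscle markers summed to 88 to 92.5 CPM without and 156 to 188 CPM with acetate, 4 being higher and 1 lower. The 10 endothelial markers summed to 256 to 269 and 172 to 195 CPM, nearly all of it from TEK. Of the 5 tested, 1 was higher and 2 were lower. In bulk RNA fewer cells of a kind and less RNA per cell cannot be told apart, and the part of other cell types in the results was not tested. The labels do not say that libraries of a group came from separate cultures. The paper's legends for RNA-seq of these conditions give n = 3 and count n as independent experiments. The p-values measure the spread between these libraries. Replicate 2 of the mtDNA + acetate group stood apart from the others of its group, with 0.237% of counts from mtDNA-encoded genes against 0.0624% and 0.064%, and counts with mtDNA that change without it are given both ways for the lists where they are printed.

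Acetate shifted a large share of the transcriptome, about as much up as down. At an edgeR adjusted p under 0.05, 4902 genes were higher (28.8% of those tested) and 4807 lower (28.3%). A change of at least 2-fold was reached by 1081 higher and 1173 lower genes, and one of at least 8-fold by 58 and 95. The median log2 fold change over all genes was 0.01, and all list medians below are on this log2 scale. The scaling for composition balances rises against falls between libraries, so their near-equal counts are partly set by it. A rise or fall of all RNA together cannot be seen in these values. Counts of list members below are to be read beside the 28.8% and 28.3% of all genes. The same treatment of cells with mtDNA, a comparison that shares no library with this one, gave 4664 higher (27.4%) and 5084 lower genes (29.9%). Of the 2254 genes changed at least 2-fold without mtDNA, 2200 had the same sign with mtDNA and 1862 passed the test there as well. The acetate effect differed between both settings, by the interaction term, for 112 genes (0.659%). That count was 403 without the mtDNA + acetate library that stood apart, and 55 to 115 when each other library of the mitochondria-depleted groups was left out.

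**Figure D1:**
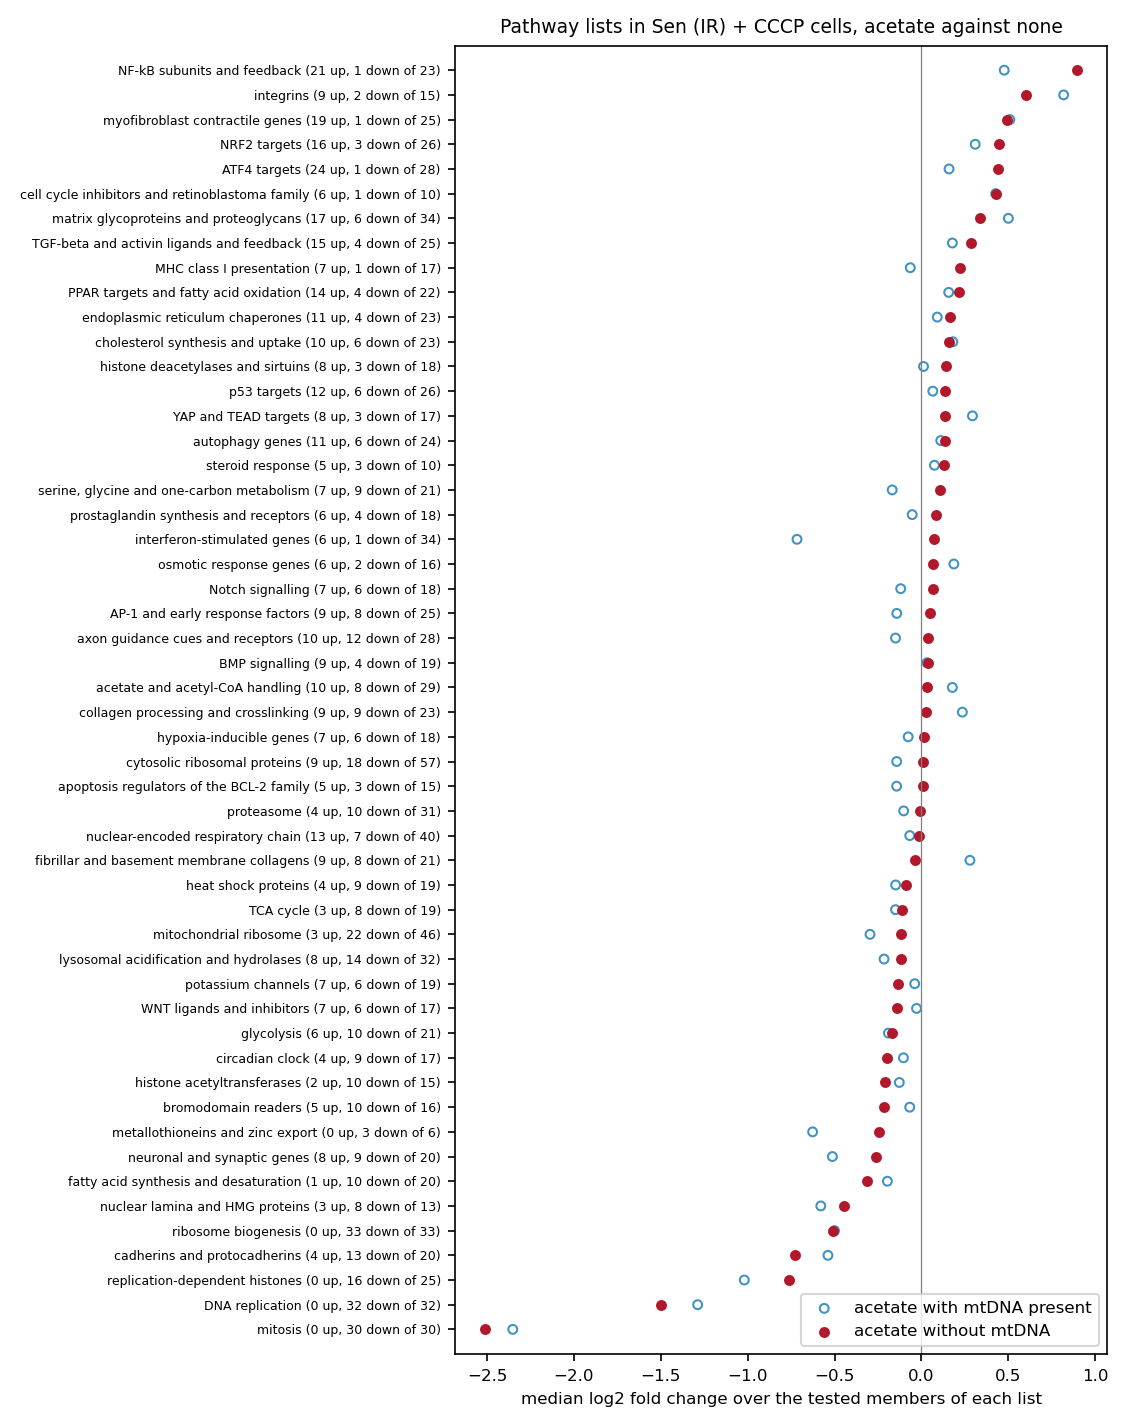
Median log2 fold change with acetate (x axis) over the tested members of 52 pathway lists, in cells without mtDNA and with mtDNA, with the numbers of members higher and lower beside each name. Mitosis and DNA replication lie lowest, at -2.51 and -1.50, and NF-kB subunits and feedback highest, at 0.90.

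The largest coordinated change was a fall of the genes of cell division. All 30 mitosis genes tested were lower with acetate (median -2.51), and so were all 32 DNA replication genes (median -1.50), and these counts were unaltered when each of the 6 libraries was left out in turn. In cells with mtDNA 30 of 30 and 32 of 32 were lower, with medians of -2.35 and -1.29. Promoters of the falling genes are shown here because the members moved together. The CHR element, searched as TTTGAA, is bound by the complexes that hold mitotic genes silent in resting cells, and E2F sites, searched as TTTCGCGC, TTTGGCGC, TTTCCCGC or TTTGCCGC, by the E2F factors that drive replication genes. Both strands were searched over the 250 bases before and 50 bases after each RefSeq gene start (GRCh38.p14). CHR letters were in 18 of 25 mitosis promoters (72%), against 15.4% of all 27305 promoters and 10.1% of those of genes tested, and in 1 of 28 replication promoters. E2F letters were in 17 of 28 replication promoters (60.7%), against 3.33% of all and 5.15% of those of genes tested, and in 3 of 25 mitosis promoters. A match describes the letters only and is no measure of binding. The shares describe the genes of each list, and their relation to the acetate response was not tested. The 200 bases before the start follow for the members of each list with the largest falls and a match there, with matches on either strand in capitals.
CDC20 (chr1:43358781-43358980, plus strand): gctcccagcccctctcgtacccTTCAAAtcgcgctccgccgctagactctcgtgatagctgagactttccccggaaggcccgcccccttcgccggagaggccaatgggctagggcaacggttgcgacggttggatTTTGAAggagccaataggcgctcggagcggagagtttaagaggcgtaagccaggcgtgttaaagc
MKI67 (chr10:128126424-128126623, minus strand): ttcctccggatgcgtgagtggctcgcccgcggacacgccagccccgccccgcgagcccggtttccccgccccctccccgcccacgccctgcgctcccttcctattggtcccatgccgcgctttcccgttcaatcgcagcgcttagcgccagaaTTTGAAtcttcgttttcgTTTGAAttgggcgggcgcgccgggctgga
GINS2 (chr16:85688955-85689154, minus strand): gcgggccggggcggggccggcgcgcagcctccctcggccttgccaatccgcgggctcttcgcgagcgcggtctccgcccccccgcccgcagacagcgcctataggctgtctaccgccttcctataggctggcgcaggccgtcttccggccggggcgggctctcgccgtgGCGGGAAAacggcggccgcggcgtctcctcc
CDT1 (chr16:88803589-88803788, plus strand): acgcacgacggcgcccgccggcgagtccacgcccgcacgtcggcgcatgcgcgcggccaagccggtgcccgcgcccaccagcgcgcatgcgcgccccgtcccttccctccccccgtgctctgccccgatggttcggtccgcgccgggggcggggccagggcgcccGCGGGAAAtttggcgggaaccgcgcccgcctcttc
CDC20, the activator of the anaphase-promoting complex, and MKI67, the proliferation antigen Ki-67, each held 2 CHR matches. GINS2, a subunit of the replicative helicase, and CDT1, which loads its core onto DNA, each held 1 E2F match.

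MKI67 read 28.9, 32.5 and 30.0 CPM in the 3 Sen (IR) + CCCP libraries and 2.73, 3.26 and 3.57 CPM with acetate. The groups did not overlap, and MKI67 fell by 3.23 ± 0.135 on the log2 scale (SE; edgeR adjusted p = 1.38e-14). RRM2, the regulated subunit of ribonucleotide reductase, read 211, 224 and 223 CPM without acetate and 29.3, 25 and 23.3 CPM with it. Without acetate RRM2 stood above both proliferating cells (101 ± 3.08 CPM) and Sen (IR) cells (77.1 ± 6.65 CPM; SD, n = 3), and with acetate below both. CCNA2, cyclin A2, had the same order, at 43.1 ± 2.64 CPM without acetate, 31.4 ± 2.72 in Prol, 19.4 ± 1.05 in Sen (IR) and 7.79 ± 0.935 with acetate. MKI67 did not share it, since Prol held 59.1 ± 0.983 CPM.

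Within mitosis KIF20A, a motor of cytokinesis, fell by 3.93, CDC20 by 3.30 and UBE2C, a ubiquitin-conjugating enzyme of the same pathway, by 3.24 on the log2 scale. These genes did not meet the rule for the largest changes given below, a mean of at least 5 CPM and no overlap between groups. Among replication genes MCM10, GINS2 and CDT1 fell by 2.83, 2.29 and 2.25. The least affected members still fell, INCENP by 0.71 and POLD1, a DNA polymerase subunit, by 0.78. Of 25 replication-dependent histone genes tested 16 were lower and the others did not pass, H2AC8 falling by 2.13 and H4C8 by 1.67. Most of these transcripts lack a poly(A) tail, the libraries came from polyA RNA, and near-identical copies share reads, so their values are uncertain. LMNB1, the lamin lost in senescence, read 11.8, 14.6 and 13.4 CPM without acetate and 2.94, 2.86 and 2.94 CPM with it. Sen (IR) cells lay between, at 8.52 ± 0.760 CPM, and Prol higher, at 24 ± 1.26 CPM. Of 13 lamina and high-mobility-group genes 8 were lower and 3 higher, HMGN2 falling by 2.15 and HMGB2 by 1.11.

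**Figure D2:**
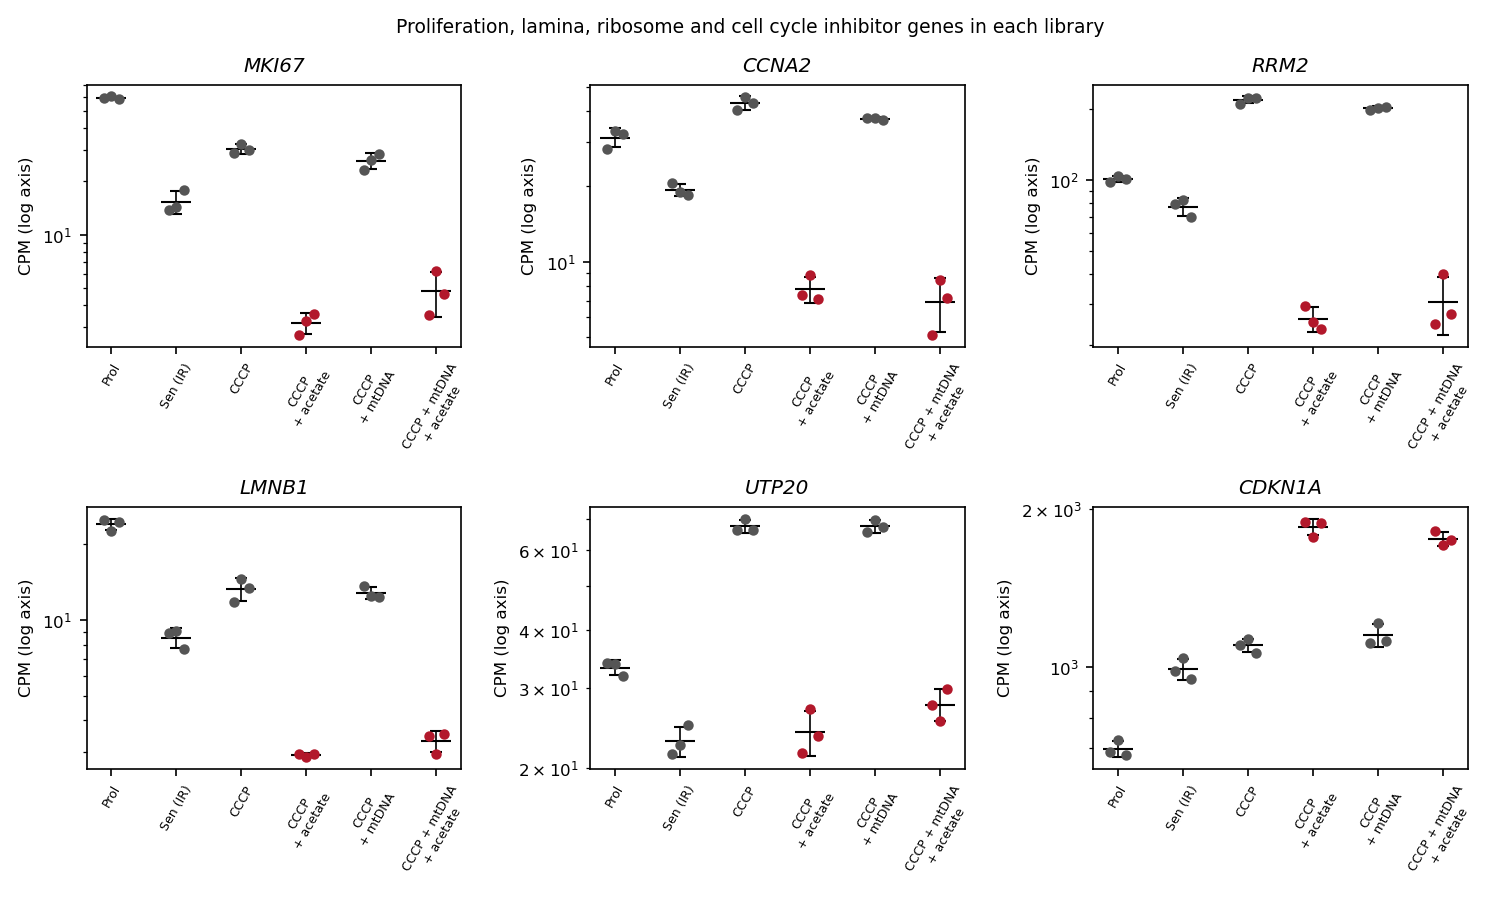
CPM on log axes (y) of MKI67, CCNA2, RRM2, LMNB1, UTP20 and CDKN1A in the 6 groups (x), where each point is a library, bars give mean ± SD (n = 3), red marks acetate groups, and CCCP stands for Sen (IR) + CCCP. Adding acetate moves the first 5 genes down and CDKN1A up, both without and with mtDNA.

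Cell cycle inhibitors moved the other way. Of 10 genes of CDK inhibitors and the retinoblastoma family 6 were higher and 1 lower. CDKN1A (p21) read 1104, 1131 and 1066 CPM without acetate and 1895, 1774 and 1886 CPM with it, above the 991 ± 46 CPM of Sen (IR). CDKN2B (p15) went from 42.8 ± 1.48 to 139.9 ± 4.79 CPM, and CDKN1B (p27) rose by 0.92 on the log2 scale. CDKN2A (p16) rose by 0.40, from 6.45 ± 0.494 to 8.54 ± 0.342 CPM. RBL2, which holds cell cycle genes silent at rest, rose by 0.91, and its relative RBL1 fell by 0.79.

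Ribosome assembly fell as a whole, though by less. All 33 ribosome biogenesis genes were lower (median -0.51), and 33 with mtDNA (median -0.50), or 32 without the library that stood apart. UTP20, of the processome that matures the small subunit, read 66.3, 70.1 and 66.1 CPM without acetate and 21.6, 26.9 and 23.6 CPM with it, near the 22.9 ± 1.74 CPM of Sen (IR). Nucleolin (NCL) went from 939 ± 5.88 to 533 ± 16 CPM, and POLR1C, a subunit of RNA polymerases I and III, fell by 0.81. The ribosomal proteins did not share this: of 57 cytosolic genes 9 were higher and 18 lower (median 0.01), with 11 and 10 lower without replicates 1 and 2 of the acetate group. Of 46 mitochondrial ribosome genes 3 were higher and 22 lower, MRPL15 falling by 0.73.

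An amino acid stress programme rose with acetate, by more in cells without mtDNA. ATF4 is the transcription factor of the integrated stress response, and its targets make and import amino acids and charge transfer RNAs. Of 28 targets 24 were higher and 1 lower (median 0.44). With mtDNA 13 were higher and 6 lower (median 0.16), or 13 and 4 (median 0.13) without the library that stood apart. The acetate effect differed between both settings for 18 of the 28 targets, each with the lower value with mtDNA, against 0.659% of all genes. Without the library that stood apart it differed for 21, against 403 of all 17497 genes tested there. The element that ATF4 shares with C/EBP proteins was searched as TGATGNAA on both strands. It was in 7 of 22 target promoters (31.8%), against 3.67% of all promoters and 1.85% of those of genes tested. This share also describes the list, and its relation to the acetate response was not tested. The members with the largest rises and a match before the start follow, with the match in capitals.
ASNS (chr7:97872409-97872608, minus strand): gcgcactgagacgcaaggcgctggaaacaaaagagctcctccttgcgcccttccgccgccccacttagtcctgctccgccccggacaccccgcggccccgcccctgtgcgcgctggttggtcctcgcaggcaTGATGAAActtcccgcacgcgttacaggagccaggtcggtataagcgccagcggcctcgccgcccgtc
AARS1 (chr16:70289507-70289706, minus strand): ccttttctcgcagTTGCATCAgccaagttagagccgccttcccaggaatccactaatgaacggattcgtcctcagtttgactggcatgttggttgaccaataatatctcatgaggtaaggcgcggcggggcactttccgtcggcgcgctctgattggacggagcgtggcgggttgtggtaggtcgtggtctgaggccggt
ASNS is asparagine synthetase, and AARS1, an alanyl-tRNA synthetase, rose by 0.77 on the log2 scale.

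ASNS read 108, 106 and 100.3 CPM without acetate and 275, 284 and 287 CPM with it, so the groups did not overlap. In the mtDNA groups it was already at 252 ± 9.63 CPM before acetate and reached 342 ± 15.9 CPM. The acetate effect was 1.43 without and 0.44 with mtDNA, a difference of -0.99 ± 0.0743 (SE; edgeR adjusted p = 1.63e-07). PSAT1, of serine synthesis, read 226, 234 and 213 CPM without acetate and 628, 619 and 620.3 CPM with it. Its mtDNA groups stood at 428 ± 7.41 and 711 ± 33.5 CPM, so the gap between settings lay mostly in the level before acetate. TRIB3, a pseudokinase that restrains ATF4, rose by 1.16 without and 0.33 with mtDNA, and CHAC1, which degrades glutathione, by 1.73 and 1.04. ATF4 itself did not pass, at -0.01, and SLC3A2, an amino acid transporter chain, was the member that fell, by 0.44. Of 21 genes of serine, glycine and one-carbon metabolism 7 were higher and 9 lower. PSAT1 led the rises, and the falls were led by TYMS, of thymidylate synthesis, which fell by 2.10.

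**Figure D3:**
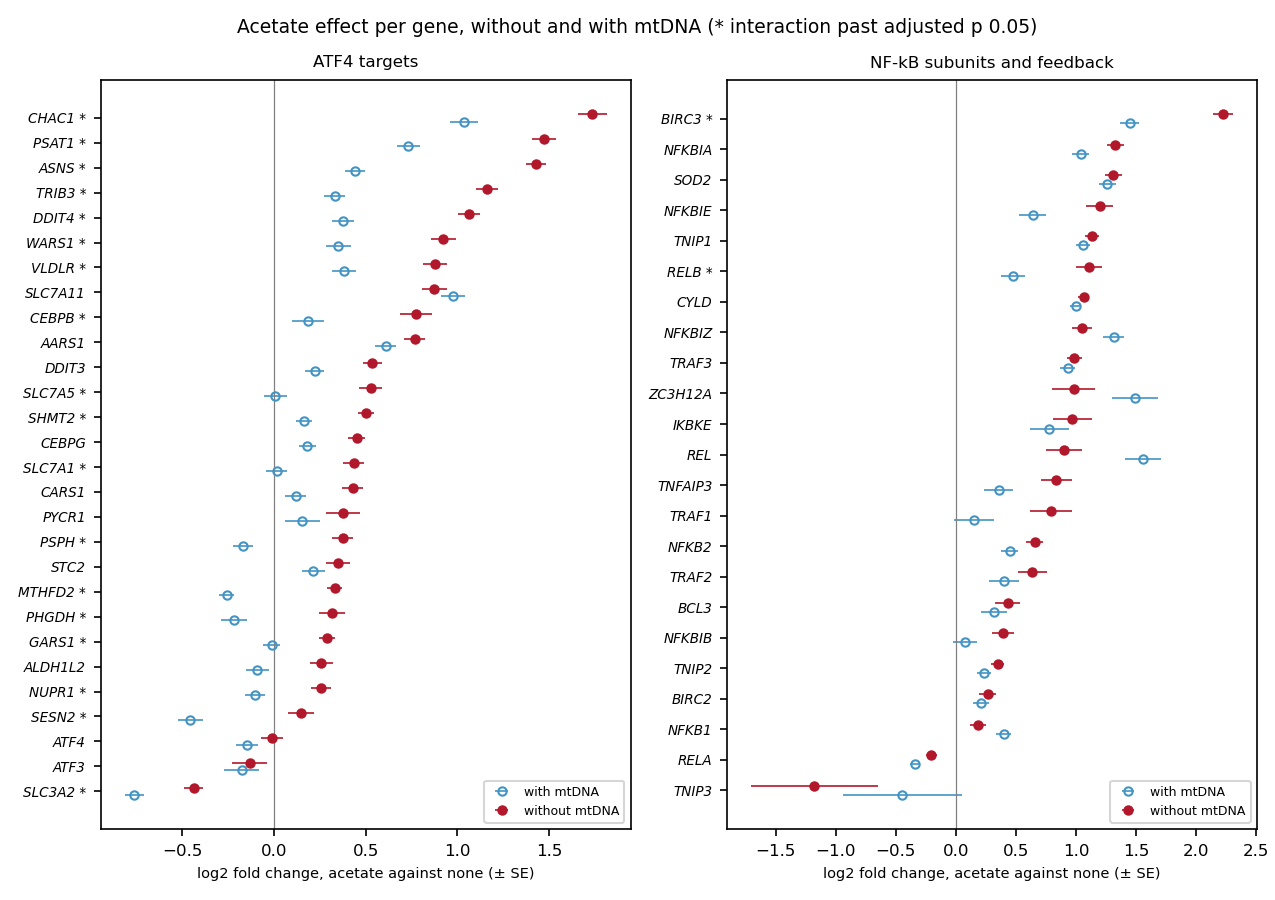
Log2 fold change with acetate (x axis, whiskers 1 SE) of each tested ATF4 target and each gene of the NF-kB list, in cells without and with mtDNA, where a star marks an adjusted interaction p under 0.05. Stars stand at 18 of 28 ATF4 targets and 2 of 23 NF-kB genes.

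Genes of the NF-kB system mostly rose, with the cytokines that NF-kB drives set aside. The list of 23 subunits and feedback regulators also held target genes such as SOD2. Of its members 21 were higher and 1 lower (median 0.90), the lower one being the subunit RELA at -0.20. With mtDNA 19 were higher and 1 lower (median 0.48), or 18 and 1 (median 0.58) without the library that stood apart. NFKBIA, the inhibitor that NF-kB induces, read 22.4, 23 and 20.2 CPM without acetate and 58, 51.2 and 56 CPM with it, approaching the 66.8 ± 6.24 CPM of Sen (IR). BIRC3, an apoptosis inhibitor, went from 15.6 ± 1.64 to 73.2 ± 7.03 CPM. SOD2, the mitochondrial superoxide dismutase, went from 305 ± 8.32 to 756 ± 71.4 CPM, below the 2631 ± 137 CPM of Sen (IR). The prostaglandin synthase PTGS2 (COX-2) read 17.9, 17.3 and 16.6 CPM without acetate and 69.3, 65.9 and 59.7 CPM with it, and PTGS1 (COX-1) rose by 1.19. Prostaglandin genes as a list were mixed, with 6 of 18 higher and 4 lower.

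Interferon-stimulated genes stayed mostly uncalled without mtDNA. Of 34 such genes 6 were higher and 1 lower (median 0.07), or 12 and 5 both when the 6 libraries were fitted alone and when no low-count filter was used. IFI6 read 2.87, 2.60 and 3.52 CPM without acetate and 11.3, 9.41 and 10.5 CPM with it. Both groups lay far under the 233 ± 42.4 CPM of Sen (IR). IFIH1, an RNA sensor, and GBP2, a guanylate-binding protein, rose by 1.61 and 1.56, and HERC6 fell by 1.67. With mtDNA the list turned, with 2 higher and 23 lower (median -0.72), or 2 and 32 (median -1.49) without the library that stood apart. The difference between both acetate effects passed for 1 member, IFI6, against 0.659% of all genes. Without that library it passed for 28, against 403 of all 17497 genes tested there. Of 17 genes of MHC class I presentation 7 were higher and 1 lower (median 0.22). With mtDNA 2 were higher and 5 lower (median -0.06), or 1 and 8 (median -0.18) without the library that stood apart, where 10 members differed between both settings against 0 with it.

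Contractile genes mostly rose. Of 25 myofibroblast contractile genes 19 were higher and 1 lower (median 0.49), and 20 and 1 with mtDNA (median 0.51). ACTA2, smooth muscle actin, read 35.8, 38.8 and 41.3 CPM without acetate and 133, 106 and 132 CPM with it. The groups did not overlap, and the acetate group was still under Sen (IR) (450.0 ± 28.7 CPM) and Prol (844 ± 8.58 CPM). LMOD1, which nucleates actin filaments, read 2.70, 2.42 and 3.45 CPM without acetate and 21.6, 16.9 and 19.9 CPM with it, against 75.3 ± 5.31 CPM in Sen (IR). TPM1, a tropomyosin, rose by 1.48. Of 15 integrins 9 were higher and 2 lower (median 0.60), ITGB3, ITGA1 and ITGAV rising by 1.49, 1.47 and 1.31 and ITGB8 falling by 1.11. CCN2, a matricellular target of YAP, went from 207 ± 9.14 to 787 ± 61.4 CPM, within the spread of Sen (IR) (886 ± 133 CPM). Of 17 YAP and TEAD targets 8 were higher and 3 lower, and of 25 genes of TGF-beta and activin signalling 15 were higher and 4 lower. TGFBI rose by 1.14 and SMURF2, which turns receptors over, by 0.88, while the activin subunit INHBB fell by 2.14.

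The extracellular matrix was split. Of 34 glycoproteins and proteoglycans 17 were higher and 6 lower (median 0.34). Fibronectin (FN1) read 1890.0, 1977 and 1891 CPM without acetate and 4104, 3919 and 3708 CPM with it, and FBLN2, MFAP2, BGN and LUM rose by 2.94, 2.62, 2.00 and 1.95. Of 21 collagens 9 were higher and 8 lower (median -0.04). COL3A1, a fibrillar collagen, read 279, 255 and 333 CPM without acetate and 121, 93.4 and 102 CPM with it. It was thus further from the 2427 ± 311 CPM of Sen (IR) with acetate than without. COL5A3 fell by 4.66, while COL12A1, which links fibrils, went from 999 ± 57.7 to 3019 ± 95.7 CPM and COL11A1 rose by 1.87. COL5A3 and FBLN2 did not meet the rule of mean CPM and no overlap used for the largest changes below. With mtDNA 12 collagens were higher and 6 lower (median 0.28), or 9 and 7 (median 0.13) without the library that stood apart. Of 23 genes of collagen processing and crosslinking 9 were higher and 9 lower, TGM2, a transglutaminase, and PCOLCE, which enhances procollagen cleavage, rising by 2.09 and 1.94. Of 20 cadherins and protocadherins 4 were higher and 13 lower (median -0.73), with 8 lower without replicate 3 of the acetate group, and CDH2 (N-cadherin) fell by 1.04.

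**Figure D4:**
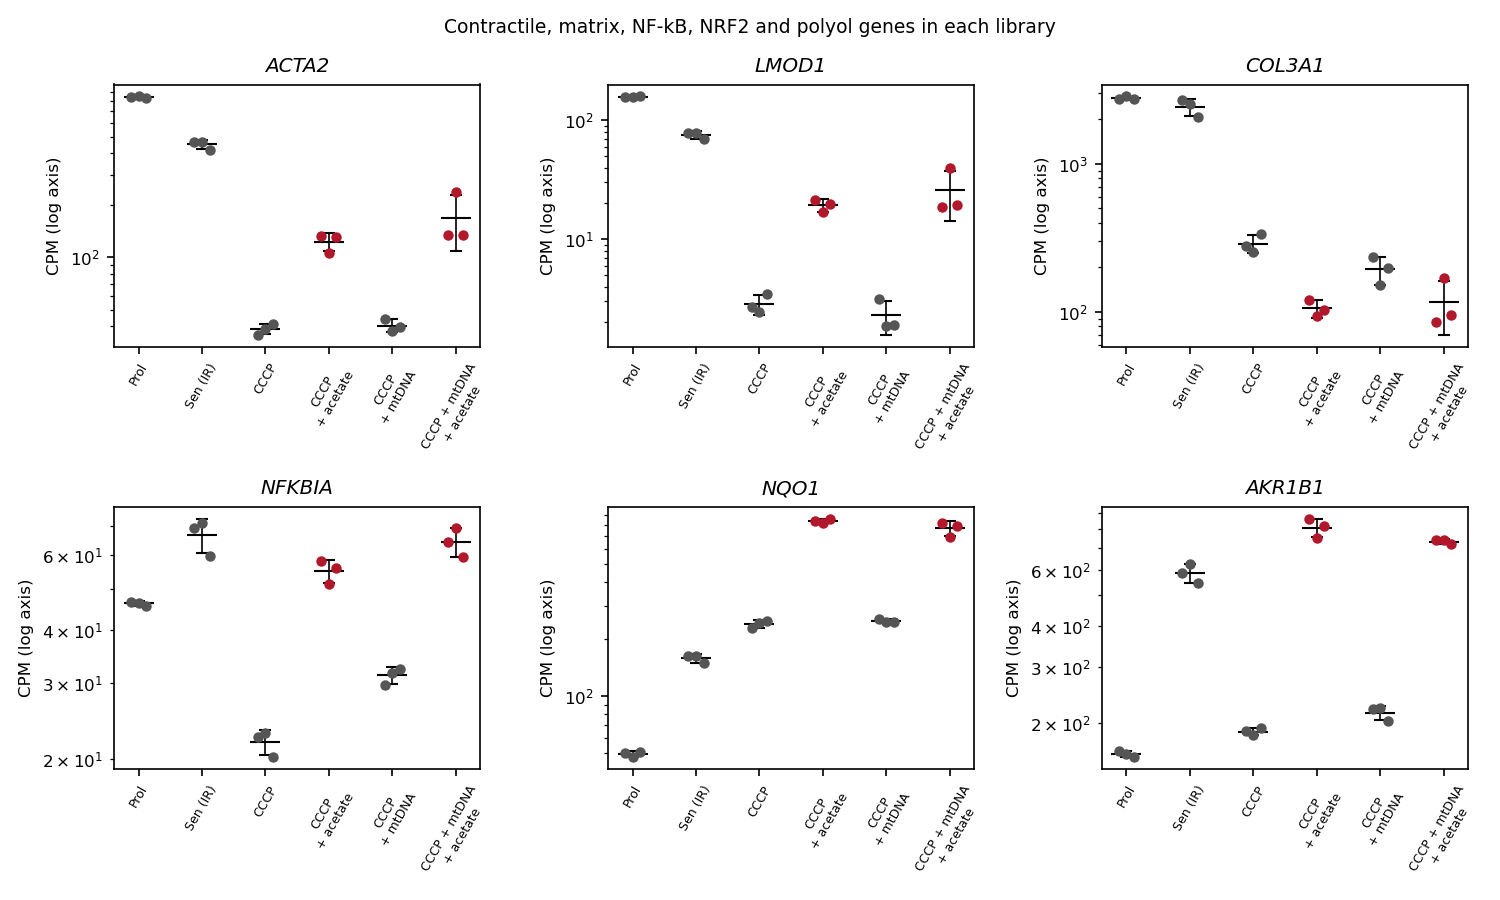
CPM on log axes (y) of ACTA2, LMOD1, COL3A1, NFKBIA, NQO1 and AKR1B1 in the 6 groups (x), where each point is a library, bars give mean ± SD (n = 3), red marks acetate groups, and CCCP stands for Sen (IR) + CCCP. With acetate ACTA2 and LMOD1 rise but stay under Sen (IR), COL3A1 falls, and NQO1 and AKR1B1 lie above Sen (IR).

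Targets of NRF2, the oxidative stress factor, mostly rose. Of 26 targets 16 were higher and 3 lower (median 0.45), and 14 and 4 with mtDNA, or 13 and 3 without the library that stood apart. NQO1, a quinone reductase, read 229, 242 and 250.5 CPM without acetate and 842, 821 and 865 CPM with it, above the 158 ± 7.96 CPM of Sen (IR). SRXN1, which repairs peroxiredoxins, and the exporter ABCC3 rose by 1.01 and 1.15, and ME1, which makes NADPH, by 0.63. OSGIN1 fell by 1.53, and HMOX1, heme oxygenase, by 0.49, a call that did not hold without replicate 2 of Sen (IR) + CCCP (-0.30). AKR1B1, aldose reductase, which makes the osmolyte sorbitol, read 189, 184 and 193 CPM without acetate and 859, 753 and 818 CPM with it. Other osmotic response genes moved less: of 16 6 were higher and 2 lower, the inositol carrier SLC5A3 rising by 0.15, a call lost without replicate 1 of the acetate group (0.14), and the osmotic factor NFAT5 not passing, at -0.07. Of 6 metallothionein and zinc genes 0 were higher and 3 lower, MT2A falling by 0.61.

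The genes that handle acetate moved in both directions. ACSS2 read 16.2, 14.5 and 14.7 CPM without acetate and 17.1, 17.6 and 16.2 CPM with it. The groups overlapped, and the log2 fold change of 0.16 ± 0.0757 did not pass (SE; edgeR adjusted p = 0.0724), though it did without replicate 1 of Sen (IR) + CCCP (0.24) or replicate 3 of the acetate group (0.22). SLC25A1 did not pass either, at 0.11, but did without replicate 2 of the acetate group (0.17). ACLY fell by 0.43, from 347 ± 14.1 to 257 ± 5.06 CPM, and ACSS3, a mitochondrial short-chain acyl-CoA synthetase, rose by 1.13. The mitochondrial acetyl-CoA synthetase ACSS1 was not among the genes tested. Of 29 genes of acetate and acetyl-CoA handling 10 were higher and 8 lower (median 0.03). Over all genes tested 28.8% were higher and 28.3% lower, so the list as a whole did not stand out.

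Writers and readers of histone acetylation were more often lower than higher, where 28.8% of all genes tested were higher and 28.3% lower. Of 15 histone acetyltransferases 2 were higher and 10 lower (median -0.21), with 6 lower without replicate 3 of Sen (IR) + CCCP. CREBBP read 87, 94.5 and 89.6 CPM without acetate and 49.7, 54.1 and 51.4 CPM with it, and its relative EP300 went from 145 ± 6.37 to 93.9 ± 7.14 CPM. KAT5 and KAT7 fell by 0.84 and 0.58. Of 16 bromodomain proteins, which bind acetylated lysine, 5 were higher and 10 lower, with 6 lower without replicate 2 of Sen (IR) + CCCP and 6 without replicate 3 of the acetate group. BRD2 fell by 0.74 and ZMYND8 rose by 0.49. Of 18 deacetylases and sirtuins 8 were higher and 3 lower. HDAC5 read 10.4, 13.3 and 10.9 CPM without acetate and 37, 32.3 and 32.1 CPM with it, HDAC1 and HDAC2 rose by 0.47 and 0.23, and SIRT7 fell by 0.70. With mtDNA 2 acetyltransferases were higher and 7 lower (median -0.13), and 4 and 7 bromodomain proteins (median -0.07). Deacetylases and sirtuins then had 8 higher and 6 lower (median 0.01), or 8 and 5 (median 0.02) without the library that stood apart. Under the call rule of the study, without mtDNA, 0 acetyltransferases were higher and 4 lower. The same rule gave 0 and 2 bromodomain proteins and 3 and 1 deacetylases and sirtuins. These values are transcript levels, not acetylation.

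**Figure D5:**
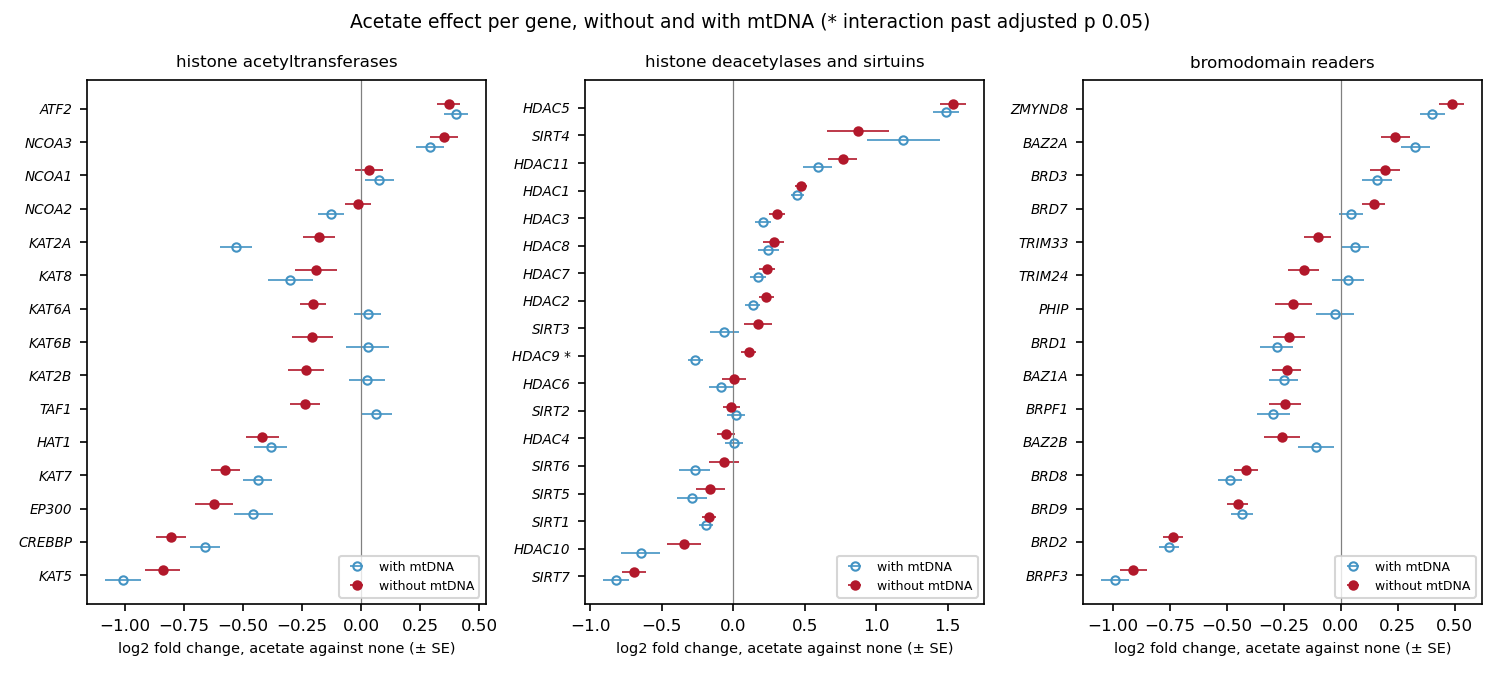
Log2 fold change with acetate (x axis, whiskers 1 SE) of tested histone acetyltransferases, deacetylases and sirtuins, and bromodomain readers, in cells without mtDNA (filled red) and with mtDNA (open blue), where a star marks an adjusted interaction p under 0.05. Without mtDNA CREBBP, EP300 and KAT5 lie at -0.80, -0.62 and -0.84, and HDAC5 at 1.54.

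Lipid and energy genes did not move as a block. Of 20 genes of fatty acid synthesis and desaturation 1 were higher and 10 lower (median -0.31), and FASN, fatty acid synthase, read 36, 38.6 and 36.6 CPM without acetate and 23.5, 21.4 and 20.3 CPM with it. Of 23 genes of cholesterol synthesis and uptake 10 were higher and 6 lower: the sterol carrier STARD4 rose by 1.54 and HMGCS1, an early step of synthesis, by 0.38, while INSIG1, a sterol sensor, fell by 0.78. Of 22 PPAR targets and fatty acid oxidation genes 14 were higher and 4 lower, led by UCP2, a carrier of the mitochondrial inner membrane (1.51). Of 21 glycolysis genes 6 were higher and 10 lower, PKM and GPI falling by 0.55 and 0.56, and of 19 TCA cycle genes 3 were higher and 8 lower, citrate synthase (CS) falling by 0.45. Under the call rule of the study 0 TCA cycle genes were higher and 0 lower. That rule gave 2 higher and 3 lower glycolysis genes, and 1 and 2 fatty acid synthesis genes. TXNIP, a brake on glucose uptake, went from 196 ± 5.01 to 64.7 ± 4.57 CPM, with 1131 ± 98.4 CPM in Sen (IR). Of 40 nuclear respiratory chain genes 13 were higher and 7 lower (median -0.02). Of 24 autophagy genes 11 were higher and 6 lower, GABARAPL1, of the autophagosome, going from 119.7 ± 3.52 to 292 ± 5.57 CPM and the kinase ULK1 rising by 0.95. Of 32 lysosomal genes 8 were higher and 14 lower, and of 19 heat shock genes 4 were higher and 9 lower.

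Signalling lists were mixed, beside 28.8% higher and 28.3% lower of all genes tested. The single genes named here do not stand for their lists. Of 18 Notch genes 7 were higher and 6 lower: NOTCH3, a receptor of mural cells, read 7.61, 8.56 and 7.95 CPM without acetate and 63, 58.8 and 58.6 CPM with it, the target HEY1 rose by 2.29, and the ligand DLL4 fell by 2.54. Of 17 WNT genes 7 were higher and 6 lower, the receptor FZD4 rising by 1.71 and the transcription factor LEF1 falling by 1.38. Of 28 axon guidance genes 10 were higher and 12 lower, the repellent SLIT2 falling by 2.10. Of 20 neuronal genes 8 were higher and 9 lower, the tubulin TUBB3 and the neurofilament NEFM falling by 2.55 and 2.41. Of 17 clock genes 4 were higher and 9 lower, NFIL3 rising by 1.16 and PER2 falling by 0.78, and of 25 AP-1 and early response genes 9 were higher and 8 lower, IER3 rising by 2.03 and FOS falling by 1.07.

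The largest single changes, among genes with a mean of at least 5 CPM, were in part outside these lists. PKD1L1-AS1, a long non-coding RNA of chromosome 7 (47795291 to 47819847, plus strand, GRCh38), read 0.223, 0.328 and 0.218 CPM without acetate and 12.8, 10.6 and 11.9 CPM with it. Strand use in counting was not stated, so reads of an antisense gene and of the gene opposite cannot be told apart. CALCRL, the receptor of adrenomedullin and calcitonin gene-related peptide, went from 1.34 ± 0.121 to 14.9 ± 0.255 CPM. NDRG4, DACT3, a WNT antagonist, and ASS1, of arginine synthesis, rose by 3.45, 3.06 and 3.05. RGS18, a regulator of G protein signalling on chromosome 1 (192158462 to 192185815, plus strand), read 85.7, 84.7 and 94.1 CPM without acetate and 7.74, 6.43 and 6.70 CPM with it. LINC01164 fell by 4.03. The other 10 of the 12 largest falls included the mitotic genes GTSE1, SKA1, PBK, BIRC5 and HMMR, which fell by 3.60, 3.58, 3.40, 3.20 and 3.15.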

How the data were processed

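PolyA RNA from IMR90 cells was sequenced in 18 libraries, 3 in each of 6 groups assigned by their labels. Per the submitters' processing notes, reads were trimmed with Trimmomatic 0.36, aligned to GRCh38 with STAR 2.5.2b and counted per gene with featureCounts (Subread 1.5.2). Strand use in counting was not given in the sources used here. The authors deposited raw counts, which every test used, and TPM values, which were not tested. The table held 57500 genes, of which 485 carried no symbol, and 16994 passed edgeR's filterByExpr.

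Counts were analysed with edgeR 4.0.16 (R 4.3.3): TMM scaling, 1 mean per group over all 18 libraries, so that all groups shared the estimate of spread, the quasi-likelihood test, and Benjamini-Hochberg adjustment over all genes tested with a threshold of 0.05. CPM values are edgeR's, computed on TMM-scaled library sizes, and are compared within a gene only. The tests were checked on simulated data. No library pair differed by as little as sampling noise. The 52 pathway lists, the 6 marker lists and the genes set aside as SASP factors were chosen with earlier results of these data known. The SASP list of the study was not used here. Named genes were the 12 largest rises and falls with a mean of at least 5 CPM and no overlap between groups, up to 4 called members of each list with the largest changes and a mean of at least 1 CPM, and a fixed set of metabolic, chromatin and fibroblast genes. AARS1 was named for its promoter match, and INCENP, POLD1, ATF4, RELA and SLC3A2 were named after their values were seen. Promoters are RefSeq sequences of GRCh38.p14, and gene positions come from GENCODE on GRCh38. Alternatives were DESeq2 (1.42.0) size factors, its Wald test, the call rule of the study, other low-count filters, a fit restricted to the libraries of each comparison, a blocking term for replicate number, removal of mtDNA-encoded genes, and each library of the mitochondria-depleted groups left out in turn, the Prol and Sen (IR) libraries being kept throughout. A few members of the lists are counted but not reported here by name.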

Additional observations from a re-analysis of the deposited data

Results flagged for a closer look

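For 16 of the named genes the effect of acetate differed between cells without and with mtDNA by the interaction term (edgeR, adjusted p under 0.05). All 16 had risen with acetate in cells without mtDNA. Most named genes were picked by the size of their change there, which is subtracted below. The choice therefore favours a shared sign, which was not tested. Each value is the log2 fold change with mtDNA minus that without, and all 16 were negative. Among ATF4 targets it was -0.99 for ASNS, -0.83 for TRIB3, -0.74 for PSAT1, -0.70 for CHAC1, -0.69 for DDIT4 and -0.50 for VLDLR. It was -0.77 for the NF-kB target BIRC3, -0.59 for the inhibitor CDKN2B, -0.51 for the apoptosis gene PMAIP1, -0.82 for the WNT receptor FZD4, -0.62 for the netrin receptor UNC5B and -1.09 for the potassium channel KCNT2. It was -0.39 for the clock gene NFIL3, -0.53 for the steroid-responsive factor KLF9 and -0.34 for aldose reductase. The largest value, -2.55, was that of the interferon-stimulated gene IFI6, the only one of the 16 whose fold changes had opposite signs, 1.81 without and -0.75 with mtDNA. The calls for PMAIP1, UNC5B, IFI6, AKR1B1, KCNT2 and KLF9 were lost when some single libraries were left out, with no change of sign.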

How the results depend on the processing

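Under the call rule of the study (DESeq2, nominal p under 0.05 and an absolute log2 fold change over 0.5), 2745 genes were higher and 2777 lower with acetate, 2931 and 2829 with mtDNA, and 622 differed between both settings. The number of genes whose acetate effect differed was 284 by DESeq2's Wald test and 413 without a low-count filter. It ran from 55 to 403 with each library of the mitochondria-depleted groups left out, the highest being without replicate 2 of the mtDNA + acetate group; the cause was not tested. With each library of the groups compared left out, 4707 to 4882 genes were higher and 4169 to 4274 lower, and 4466 to 4644 and 4565 to 4807 with mtDNA. Same-numbered libraries of the acetate and Sen (IR) + CCCP groups did not deviate together (r of -0.0548, 0.0043 and 0.00308 across genes). The deviations were taken from the mean of each group, so these values cannot tell whether same-numbered libraries were handled together. With the replicate block 4925 genes were higher and 4822 lower, 4666 and 5098 with mtDNA, and 123 differed. Of the 9709 genes called, 8492 to 9701 kept their call under the alternatives other than the rule of the study, which kept 5067, and none was called in the opposite direction. For the acetate effect of named genes 3366 values kept their side of the threshold, 45 lost and 7 gained a call, and no called value changed sign; for their difference between both settings 272 kept and 48 lost the call.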
